A study of Mus musculus with 2 samples.

Results

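Potassium channel genes are described here by the DNase I signal over their coding spans in mouse myeloid cells. They are the genes whose symbol starts with Kcn followed by a letter. 94 such genes were found among the 22605 genes of the deposited table, in 240 of its 55432 transcript rows, and each is represented by its row with most windows. Both groups are the M1 line, a murine myeloid leukemia line with progenitor features that the labels assign to bone-marrow, at passages 15 to 18 and kept in RPMI 1640 with horse serum. M1 was left untreated, and M1+IL-6 was given interleukin-6, a cytokine under which these cells differentiate, for 4 to 5 days according to the labels. There is 1 library per group, so no value below has a replicate check, and a ratio compares these libraries, not the conditions. M1 is a single leukemia line, which limits it as a model of normal progenitors.

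Potassium channels let potassium ions leave or enter the cell along their gradient and so set the membrane potential. Alpha subunits form the pore, and auxiliary subunits change how the pore opens or reaches the membrane. Most members are known from nerve, muscle, heart and kidney, while a small number, above all Kcna3 and Kcnn4, are also known from lymphocytes and macrophages, where they sustain calcium entry. DNase I cuts open chromatin more readily than closed chromatin, so reads mark accessible DNA and say nothing directly about expression.

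Signal is given as mean reads per 700-bp window over the windows that a coding span touches, from start to stop codon with introns included. In M1+IL-6 each read counts 1.03816, as deposited, and these are called scaled reads. Intervals are 95% intervals from the read numbers, exact Poisson for a mean and Clopper-Pearson for a ratio, and cover counting error only. An SD is the spread between windows of 1 gene, not between samples. Summed over genes, the table held 9327942 reads in M1 and 8704059 in M1+IL-6, with medians over all genes of 7.75 and 8.14 reads per window. Of 8 myeloid markers 7 were found under their symbols (Spi1 was not), with means from 3.33 (Fcgr3) to 129 (Cd68) in M1 and a sum of 238 in M1 against 95.4 in M1+IL-6. Most of this difference was Cd68 (129 and 25.95) and Cd14 (50.7 and 20.4). Csf1r (26.2 and 14.8) and Itgam (9.29 and 6.91) were lower too, with log2 ratios of -0.82 and -0.43. Fcgr3, Lyz2 and Mpo had log2 ratios of 0.43, 0.15 and 0.33. Of the 7 myeloid markers found 3 exceeded 20 reads per window in M1, against 15.5% of all genes. Of the 5 lymphoid markers 0 did. Of the 5 neuron markers 1 did (Syp, 27.4), and of the 5 heart and skeletal muscle markers 1 did (Myh6, 21.1). The sums were 42.8 and 55.7 for the lymphoid, 55.7 and 44.4 for the neuron and 61.3 and 74.6 for the muscle list, in M1 and M1+IL-6. The lower neuron sum came mostly from Syp (27.4 and 9.34). Neurod1 was lower too, on few reads (15 and 9, log2 ratio -0.65), while Snap25, Stmn2 and Rbfox3 had log2 ratios of 0.81, 0.58 and 0.48. No marker found was at 0 reads in either library. The part of these differences in the values below was not tested, and fewer cells with an open site cannot be told apart from less opening per cell.

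In untreated M1 cells the DNase I signal of the potassium channel genes was not uniformly low. Their means ran from 1.18 reads per window in Kcnc2 to 45.0 in Kcna3, around a median of 8.78. Of the 94 genes 54 (57.4%, against 49.9% of all genes) lay above the median of all genes and 40 did not. The upper tail was thinner than elsewhere. 10 members (10.6%) had a mean above 20 reads per window, against 15.5% of all genes. These 10 were Kcna3, Kcnk7, Kcnn4, Kcnn1, Kcnf1, Kcnmb1, Kcng2, Kcnj4, Kcng1 and Kcnh3. The 12324 windows of the 94 genes held 64837 reads, or 5.26 per window, a lower value than the median over genes because the longest genes had the lowest means.

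**Figure D1:**
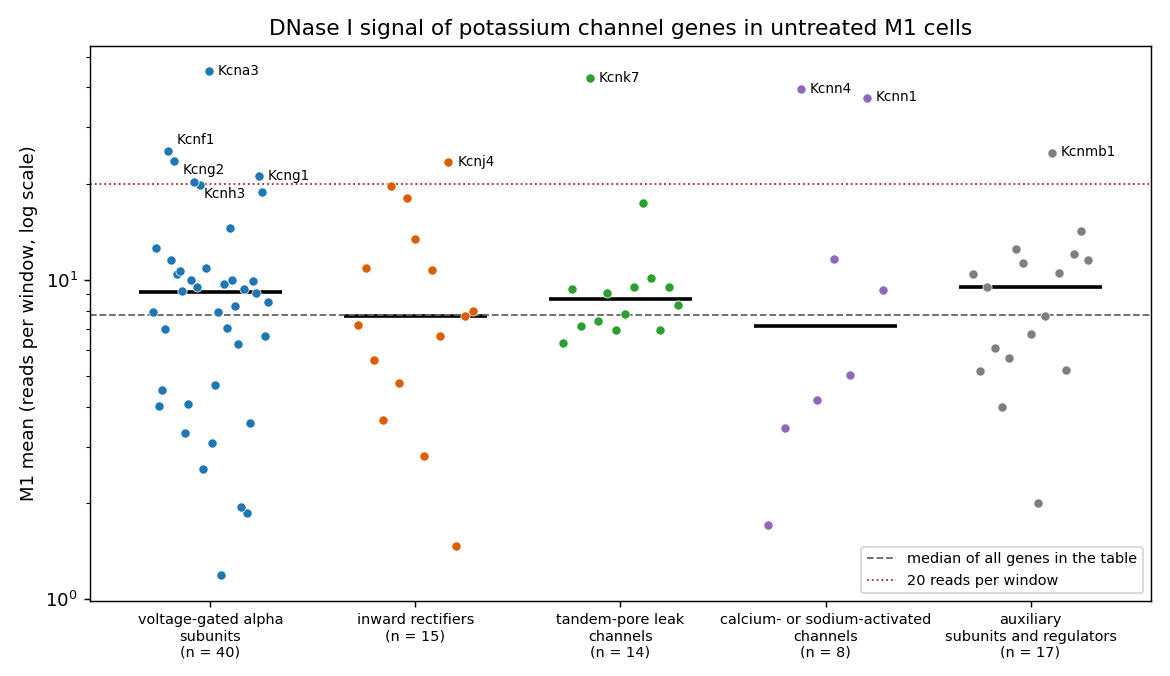
Mean DNase I reads per window in untreated M1 cells for the 94 potassium channel genes, 1 point per gene, by role of the protein, on a log axis. Black bars are medians of the roles, the dashed line is the median of all genes (7.75) and the dotted line is 20 reads per window, which 10 genes exceed, 4 of them well apart from the rest at 37.2 to 45.0.

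Kcna3, a voltage-gated pore subunit of lymphocytes and macrophages, headed the group. The gene lies on chromosome 3 of NCBIM37 from 106839080 to 106841047 on the plus strand, and its coding sequence is 1 exon that touches 3 windows. These held 135 reads in M1, a mean of 45.0 (37.7 to 53.3; SD 14.8), at the 95 percentile of all genes. The mean, SD and window number allow only 62, 38 and 35 reads or 55, 52 and 28 reads for the 3 windows, so each window was above the median of all genes. The neighboring Kcna2 and Kcna10, close relatives on the same strand, began 66.1 kb and a further 88.5 kb on, and had 6.67 and 4.50 reads per window. High signal at this cluster was therefore limited to the Kcna3 end among the coding spans listed.

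Kcnn4 and Kcnn1, calcium-activated channels without voltage dependence, were the next pair of a family. Kcnn4, the intermediate-conductance channel of blood cells, lies on chromosome 7 from 25155282 to 25170228 (plus strand, 8 coding exons). Its 20 windows held 789 reads in M1, a mean of 39.5 (36.7 to 42.3; SD 40.2), and its strongest window held between 79 and 210 reads. Kcnn1, a small-conductance channel known from neurons, lies on chromosome 8 from 73365948 to 73380907 (minus strand, 9 coding exons). Its 17 windows held 632 reads, a mean of 37.2 (34.3 to 40.2; SD 64.9). An SD above the mean shows that the reads of Kcnn1 sat in few windows, and its strongest window held between 144 and 288 of the 632 reads. Kcnk7, a tandem-pore family member, lies on chromosome 19 from 5704367 to 5707101 (plus strand, 3 coding exons), and its 4 windows held 171 reads, a mean of 42.8 (36.6 to 49.7; SD 27.2).

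The 250 bases before the transcription start are shown for the members above 20 reads per window whose listed windows reach into them and where the annotation places no exon. Kcna3, Kcnn4 and Kcnk7 are shown as genes of high M1 signal with at least 2-fold less in M1+IL-6, and Kcnh3 as a gene above 20 reads without such a difference. Capitals mark GAGGAA or its complement TTCCTC, a purine-rich core that PU.1, the ETS factor of myeloid cells, is known to bind. The sequences were read from NCBIM37, all on the plus strand, 5′ to 3′, at chr3:106838830-106839079 for Kcna3, chr7:25155032-25155281 for Kcnn4, chr19:5704117-5704366 for Kcnk7 and chr15:99055042-99055291 for Kcnh3.
Kcna3: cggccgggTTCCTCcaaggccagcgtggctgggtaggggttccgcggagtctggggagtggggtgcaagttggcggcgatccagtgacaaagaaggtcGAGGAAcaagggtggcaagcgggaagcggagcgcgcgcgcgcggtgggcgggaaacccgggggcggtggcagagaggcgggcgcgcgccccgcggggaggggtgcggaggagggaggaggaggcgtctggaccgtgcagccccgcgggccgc
Kcnn4: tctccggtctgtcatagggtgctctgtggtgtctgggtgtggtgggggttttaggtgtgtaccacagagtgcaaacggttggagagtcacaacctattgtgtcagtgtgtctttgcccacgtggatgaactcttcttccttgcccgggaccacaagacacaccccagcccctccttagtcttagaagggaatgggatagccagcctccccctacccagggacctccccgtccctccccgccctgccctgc
Kcnk7: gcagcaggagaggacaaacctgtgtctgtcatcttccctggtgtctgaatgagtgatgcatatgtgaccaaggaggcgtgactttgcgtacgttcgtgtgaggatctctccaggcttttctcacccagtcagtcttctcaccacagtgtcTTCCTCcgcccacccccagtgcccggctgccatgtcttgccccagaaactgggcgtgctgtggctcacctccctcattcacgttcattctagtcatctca
Kcnh3: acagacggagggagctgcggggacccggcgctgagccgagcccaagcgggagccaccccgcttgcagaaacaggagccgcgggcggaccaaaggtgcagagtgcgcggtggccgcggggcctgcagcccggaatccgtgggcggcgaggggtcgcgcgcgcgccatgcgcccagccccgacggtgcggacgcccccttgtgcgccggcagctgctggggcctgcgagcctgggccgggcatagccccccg
Kcna3 and Kcnh3 had CpG-rich upstream sequence, with 31 and 33 CpG in 250 bases and a GC content of 74.4% and 77.2%. Kcnn4 and Kcnk7 had 6 and 8 CpG and a GC content of 58.8% and 55.2%. The high members thus did not share 1 type of upstream sequence. Kcna3 had 2 matches to the core, Kcnk7 had 1, and Kcnn4 and Kcnh3 had 0 in this window. Over the 94 genes 28 (29.8%) had a match on either strand, against 23.1% of 22592 genes, and 2 (2.13%) had TATAAA or TTTATA, against 12.6%. A match is only a match of letters, and some of these 250 bases lay in the listed windows in 42 members and none did in 50, and 2 members were not read for this.

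The other 6 members above 20 reads per window had means close together. Kcnf1 on chromosome 12, a modifier subunit that does not conduct alone, had 25.3 (19.96 to 31.7; 76 reads in 3 windows), and its windows held 38, 30 and 8 reads. Kcnmb1 on chromosome 11, the auxiliary beta subunit of the large-conductance channel in smooth muscle, had 25.0 (21.8 to 28.5; 225 reads in 9 windows). Kcng2 on chromosome 18, another modifier subunit, had 23.5 (17.3 to 31.3; 47 reads in 2 windows holding 27 and 20). Kcnj4 on chromosome 15, an inward rectifier of brain and heart, had 23.3 (18.2 to 29.5), with 34, 30 and 6 reads in its 3 windows. The intervals of these genes overlap, so their order is not resolved by the reads. Kcng1 on chromosome 2 had 21.1 (18.5 to 24.0; 232 reads in 11 windows) and Kcnh3 on chromosome 15, a channel of the ether-a-go-go group, had 20.2 (18.5 to 22.0; 525 reads in 26 windows).

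The threshold of 20 reads fell within a run of similar values. Kcnh3 at 20.2 was just inside it, and its relative Kcnh4 on chromosome 11 was just outside at 19.8 (18.2 to 21.6; 535 reads in 27 windows). Kcnj9, a G protein-gated inward rectifier on chromosome 1, followed at 19.7 (16.6 to 23.3), Kcng4 at 18.8 and Kcnj11, the pore of the ATP-sensitive channel, at 18.0. Kcnj4 and Kcnh3 lie on chromosome 15, where the median over all genes was 14.6 reads per window and 33.1% of genes exceeded 20. Their place above 20 cannot be told apart from the level of that chromosome, and without its genes 8 members remained above 20.

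The lowest members were long genes of excitable cells. Kcnc2, a fast voltage-gated channel on chromosome 10, had 323 reads over 273 windows, or 1.18 per window (1.06 to 1.32). Kcnj3, a G protein-gated inward rectifier, had 333 reads over 227 windows, or 1.47. Kcnt2, a sodium-activated channel, had 1.71 over 520 windows. Each lay far below the median of all genes with a narrow counting interval. Kcnip4, which encodes a protein that binds the Kcnd channels, had the longest span, with 1621 windows and a mean of 1.99, and Kcnd2, one of those channels, had 1.85 over 731 windows. The span of Kcnq5, a channel of slow neuronal currents, reached 800 windows and its mean was 4.08 (3.94 to 4.22). Kcna4 (14 reads), Kcne3 (12 reads) and Kcne1l (8 reads) had no more than 21 reads in either library over spans of 3, 1 and 2 windows, and their means of 4.67, 12.0 and 4.00 were not the lowest.

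The potassium channel genes were longer than the average gene, with a median of 24.5 windows against 16. Among them the signal was lower in longer genes, with a Spearman's rho of -0.39 over the 94 genes, against -0.01 over 22575 genes. In the 20 members with over 200 windows the median was 4.14 reads per window, near the 4.71 of all genes of that length. In the 17 members with 1 to 3 windows it was 10.0, above the 5.33 of all genes so short. Members of 11 to 50 and of 51 to 200 windows had medians of 10.7 and 8.71, against 9.73 and 6.96, and members of 4 to 10 windows had 8.88, against 10.5. None of the members above 50 windows reached 20 reads per window. Few genes of that length did, 3.57% of all genes with 51 to 200 windows and 0.40% of those over 200. Compared with genes of the same length, the members were thus higher in 3 of 5 classes and lower in the class of 4 to 10 windows and in the longest.

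**Figure D2:**
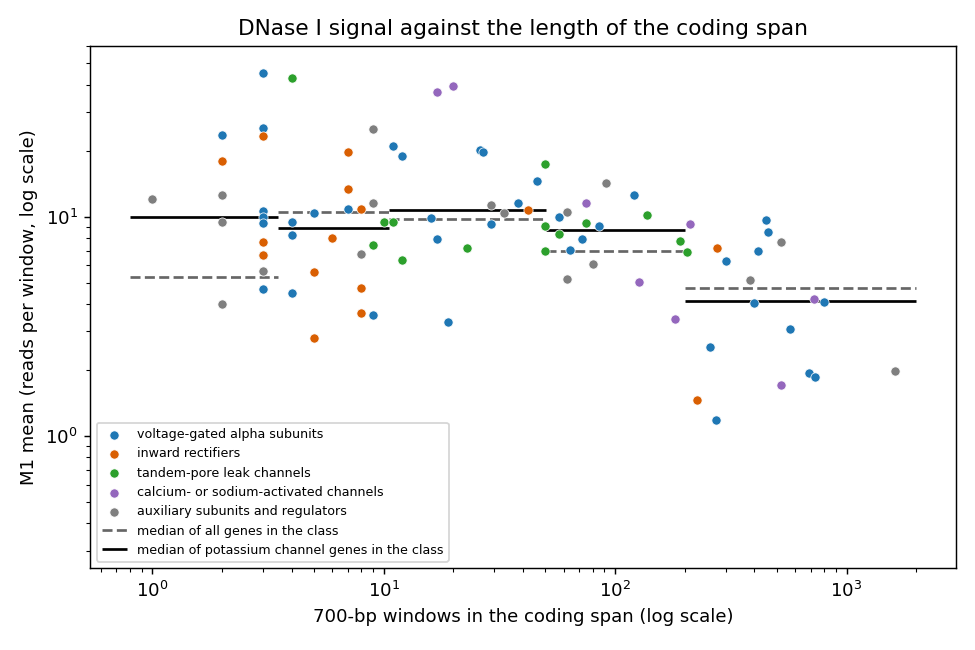
Mean M1 reads per window against the number of 700-bp windows in the coding span, both on log axes, 1 point per potassium channel gene, colored by role. Black lines are medians of the potassium channel genes and dashed lines those of all genes in 5 classes of length. The median of the members with 1 to 3 windows lies above that of all genes so short (10.0 against 5.33), and members over 200 windows reach no more than 9.67.

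Base composition moved with these values. The windows of the members had a median GC content of 49.2% and 15.5 CpG per kb, against 45.6% and 12.0 over all genes. The Spearman correlation of the M1 mean with GC content was 0.72 over the 94 members and 0.62 over 22575 genes. In members with over 200 windows the median GC content was 40.9%, and in those with 1 to 3 windows it was 50.9%. GC content and length vary together here, and the part of either in the signal was not tested. The 17 members with a single coding exon, a structure frequent in the Kcna and Kcnj families, had a median of 10.0 and 4 of them exceeded 20, against a median of 8 and 6 above 20 among the other 77. In 43 members the transcription start of the row lay within the listed windows, with a median of 8.25, against 9.32 in the 51 where it lay outside. Inclusion of the start did not go with higher means.

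By role, the medians of the groups were close and the ranges wide. The 40 voltage-gated alpha subunits had a median of 9.16 in M1 (1.18 to 45.0), and 5 of them exceeded 20. Within them the 4 Kcng modifiers ran from 7.05 in Kcng3 to 23.5 in Kcng2, and 2 exceeded 20, while the 3 Kcnd genes lay at 1.85 to 6.27, each below the median of all genes. The 15 inward rectifiers had a median of 7.67, and Kcnj4 exceeded 20. The 14 tandem-pore genes, of a family known for the resting leak, had a median of 8.71, a lowest value of 6.33 in Kcnk6 and Kcnk7 as their exception. The 8 genes of the Kcnma, Kcnn, Kcnt and Kcnu families were grouped by symbol as calcium- or sodium-activated channels. They ranged widely around a median of 7.16, between 1.71 in Kcnt2 and 39.5 in Kcnn4. The 17 auxiliary subunits and regulators had a median of 9.50, and Kcnmb1 exceeded 20. Each role thus held at least 1 gene above 20 beside a majority below it.

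After IL-6 the members were compressed toward the middle. In M1+IL-6 their means ran from 1.83 to 30.8 scaled reads per window around a median of 10.4, against 8.14 over all genes, and their 12324 windows held 79238 reads. With the deposited scaling 71 of the 91 members with more than 21 reads in either library had a log2 ratio above 0, against 51.5% of all such genes, and the median log2 ratio was 0.36, against 0.03. The whole counting interval lay above a ratio of 1 in 47 of 91 members, against 29% of all genes, and below 1 in 10 members, against 34.5%. The ratio was lower where the M1 level was higher. Spearman's rho between log2 ratio and M1 mean, which share the M1 reads, was -0.59 over the members and -0.70 over all genes. Of the 18 compared members with a mean up to 5 reads per window 17 had a log2 ratio above 0, and the median was 0.61 (0.44 over all genes of that level). For means of 5 to 10 reads the median was 0.40 (all genes 0.20), for 10 to 20 reads 0.22 (all genes -0.16), and above 20 reads -0.38 (all genes -1.14). At every level the members sat higher than all genes of the level, under the deposited scaling.

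These directions rest on the scaling between the libraries. Scaling to single windows with more than 21 reads in both libraries would count each M1+IL-6 read as 3.68 instead of 1.03816 and add 1.83 to every log2 ratio. The median of all genes would then be 1.85 and that of the members 2.18, all 91 members would have a log2 ratio above 0, and differences between members would stay as given. Every direction below is that of the deposited scaling, and the members that are lower would be higher under this one.

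**Figure D3:**
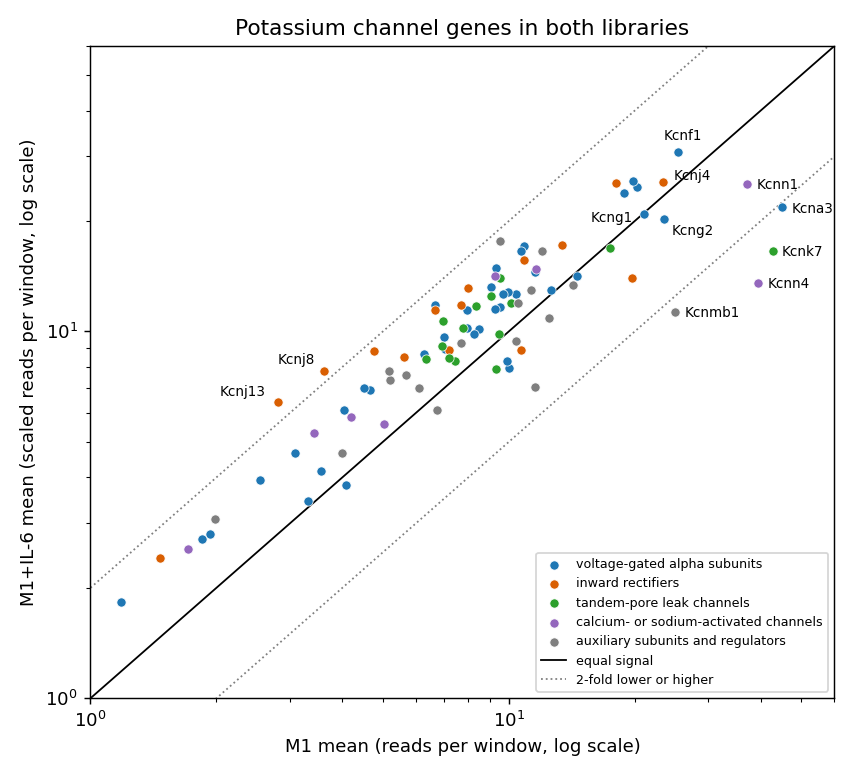
Mean reads per window in M1 (horizontal) and mean scaled reads per window in M1+IL-6 (vertical), both on log axes, 1 point per potassium channel gene, with 1 library per group. Most points lie slightly above the line of equal signal under the deposited scaling, and Kcna3, Kcnk7, Kcnn4 and Kcnmb1 lie beyond the dotted line for 2-fold lower, which they would not under the scaling to strong single windows.

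At least 2-fold lower in M1+IL-6 were 4 of the 91 members (4.4%), against 13.5% of all genes. All 4 had M1 means above 20, where 58.1% of all genes were that much lower. Kcnn4 had 789 reads in M1 and 261 in M1+IL-6, or 39.5 and 13.5 scaled reads per window, a log2 ratio of -1.54 (ratio 0.343, 0.297 to 0.396). Kcnk7 had 171 and 64 reads (log2 ratio -1.36, ratio 0.389, 0.287 to 0.521), and Kcnmb1 had 225 and 98 (log2 ratio -1.14, ratio 0.452, 0.353 to 0.576). Kcna3 had 135 and 63 reads, or 45.0 and 21.8 scaled reads per window, a log2 ratio of -1.04 (ratio 0.484, 0.353 to 0.658), and its interval includes a ratio above 0.5. Kcna3 stayed above 20 scaled reads per window, and Kcnn4, Kcnk7 and Kcnmb1 did not.

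The other 6 members above 20 differed by less than 2-fold. Kcnn1 was lower by less than 2-fold, with 632 and 414 reads (ratio 0.680, 0.599 to 0.771). Kcng2 (47 and 39 reads), Kcng1 (232 and 221), Kcnj4 (70 and 74) and Kcnf1 (76 and 89) had intervals that include 1, so a difference was not detectable at this depth. Kcnh3 had 525 and 619 reads (ratio 1.22, 1.09 to 1.38), and its relative Kcnh4 had 535 and 667 (ratio 1.29, 1.15 to 1.45). Kcnh3 and Kcnh4 were therefore higher beyond counting error. Of the 8 Kcnh genes Kcnh2 alone had an interval that includes 1 (ratio 0.973, 0.871 to 1.09). Of the 10 members above 20 in M1, 3 (Kcnf1, Kcnj4 and Kcnh3) had a log2 ratio above 0, against 5.73% of all genes above 20. In M1+IL-6 10 members exceeded 20 scaled reads per window (10.6%, against 7.41% of all genes), and 7 of them had also done so in M1 (7.45%, against 6.06%). The 3 that exceeded 20 only in M1+IL-6 were Kcnh4, Kcng4 and Kcnj11.

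At least 2-fold higher were 2 of 91 members (2.2%, against 1.63% of all genes), both inward rectifiers with few reads. Kcnj8, a pore of vascular ATP-sensitive channels, had 29 and 60 reads over 8 windows, or 3.63 and 7.79 scaled reads per window (ratio 2.15, 1.36 to 3.47). Kcnj13 had 14 and 31 reads over 5 windows (ratio 2.30, 1.19 to 4.68), and those windows lie within the coding span of Gigyf2, so the reads cannot be assigned to 1 gene. Both low bounds are under 2-fold. Where both libraries together gave 100 reads or more, the highest log2 ratios were those of Kcnj15 (38 and 68 reads, 0.89), Kcnj3 (333 and 528 reads, 0.72) and Kcnj1 (48 and 76 reads, 0.71), all inward rectifiers as well. As a role the inward rectifiers had the highest median log2 ratio, 0.60, with 13 of 15 above 0. The voltage-gated alpha subunits had 0.35 (32 of 39 above 0), the tandem-pore channels 0.31 (11 of 14), the calcium- or sodium-activated channels 0.41 (6 of 8) and the auxiliary subunits and regulators 0.20 (9 of 15). The differences between roles were not tested.

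Most of the named long genes of low signal were higher in M1+IL-6, and Kcnq5 was lower. Kcnip4 had 3224 and 4825 reads (ratio 1.55, 1.49 to 1.63), Kcnd2, whose channel its protein binds, had 1353 and 1914 (ratio 1.47, 1.37 to 1.58), and Kcnt2 had 888 and 1280 (log2 ratio 0.58). Kcnc2 had 323 and 480 reads, or 1.18 and 1.83 scaled reads per window, and stayed the lowest member in both libraries. Kcnq5, with 3263 and 2946 reads (ratio 0.937, 0.891 to 0.985), was slightly lower despite a comparable length. Within Kcnq5 the 652 windows at the 5′ end had a ratio of 0.903 (0.853 to 0.955) and the other 148 windows one of 1.09 (0.973 to 1.22), so the lower signal lay in the 5′ stretch.

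**Figure D4:**
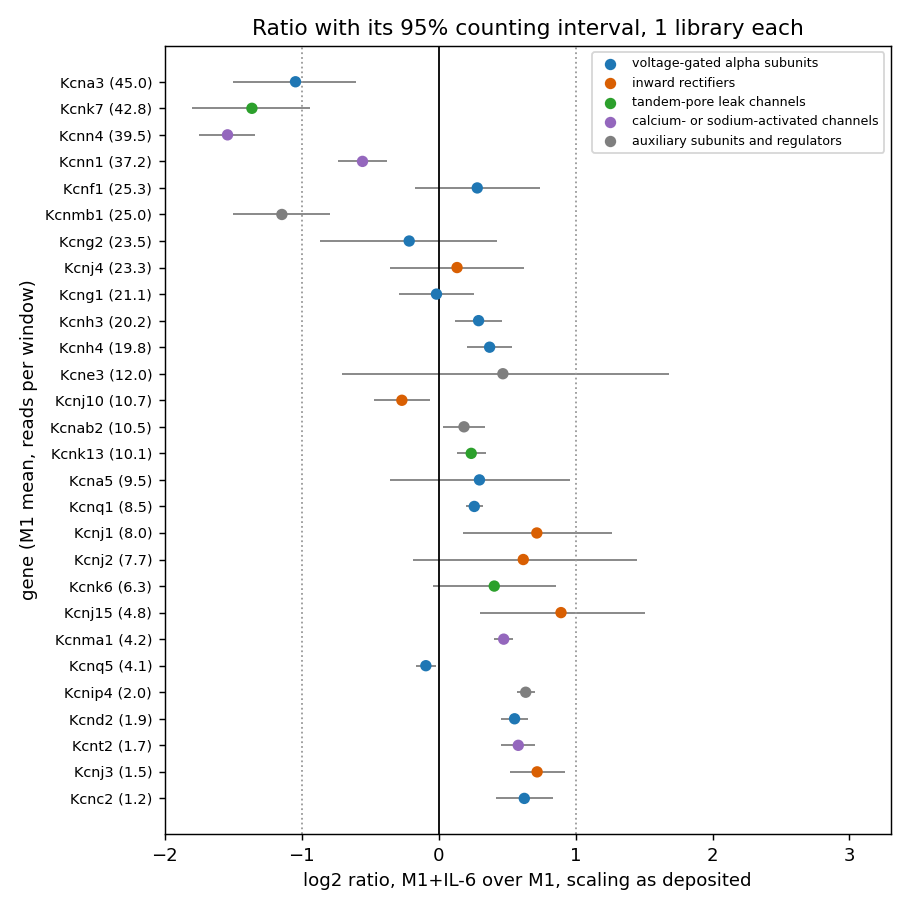
Log2 ratio of scaled reads, M1+IL-6 over M1, for 28 potassium channel genes ordered by M1 mean (in brackets, reads per window), with the 95% counting interval as a line and dotted lines at 2-fold. Under the deposited scaling the genes of high M1 signal reach down to -1.54 (Kcnn4) and Kcnip4, Kcnd2, Kcnt2, Kcnj3 and Kcnc2, all long genes of low signal, lie at 0.55 to 0.72, while scaling to strong single windows would move every point by 1.83 to the right.

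Where transcripts of a gene share window boundaries, their difference isolates a stretch of windows. This was possible in 38 members. In Kcnn4 the 12 windows at the 5′ end, chr7:25155201-25163600, held 592 reads in M1 and 171 in M1+IL-6, or 49.3 and 14.8 scaled reads per window (ratio 0.300, 0.251 to 0.356). The 8 windows at the 3′ end held 197 and 90 reads, or 24.6 and 11.7 (ratio 0.474, 0.365 to 0.612). The intervals do not overlap, so the 5′ stretch of Kcnn4 both was the stronger in M1 and had the lower ratio. In M1+IL-6 the stretches were nearly level.

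Kcnj10, an inward rectifier of glia, showed a local signal beneath an ordinary mean. Its 42 windows averaged 10.7 reads in M1 and 8.87 scaled reads in M1+IL-6 (449 and 359 reads). The last 3 of them, chr1:174298601-174300700, held 90 and 46 reads, or 30 and 15.9 per window (ratio 0.531, 0.364 to 0.765), while the other 39 had 9.21 and 8.33. Of these 2 stretches the one at the 3′ end, 27.3 to 29.4 kb from the transcription start, had the lower ratio, and a single window among the other 39 could differ as much. Kcnj9, its neighbor 14.7 kb away on chromosome 1, was also lower (138 and 94 reads, ratio 0.707, 0.538 to 0.926).

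In other genes too the signal was unevenly placed. In Kcnn1 the 14 windows nearer the 5′ end held 531 and 345 reads and included a window of 164 to 286 reads in M1, against 39.5 to 91.4 scaled reads in M1+IL-6. The strongest window of Kcnn1 was thus lower for certain, although the mean of the gene differed less than 2-fold. In Kcnk13, a tandem-pore channel of microglia, the 5′-most window held 26 and 19 reads, against 10.0 and 11.9 per window in the other 137. In Kcnq1, a channel of heart muscle and epithelia, the strongest window (72 to 467 reads in M1) lay outside the 59 windows at the 5′ end, which held at most 52 in any window. Kcnmb1 lies within the span of Kcnip1, an auxiliary subunit of Kcnd channels. Its 9 windows make up 1.73% of the windows of Kcnip1 but 5.63% of its M1 reads, and without them Kcnip1 had 7.39 and 9.26 scaled reads per window. The windows shared with Kcnmb1 were hence lower in M1+IL-6 and the rest of Kcnip1 slightly higher (log2 ratio 0.33). Reads in the shared windows cannot be assigned to 1 of these genes, and without genes that share windows 9 members exceeded 20 reads per window in M1 and 3 were at least 2-fold lower.

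A mean can hide a single open window, and the deposited SD bounds the strongest one. For certain means here that the bounds from the whole row of a gene allow nothing else. Counting error is not included, and stretches within a gene are not used in these counts. In M1 24 of 94 members (25.5%) held a window above 21 reads for certain, against 35.3% of all genes. None was held for certain in 27 (28.7%, against 35.7%), and 43 could not be decided from the row. Stretches settle some of these 43. Kcnk13 held a window of 26 reads at its 5′ end, and a stretch in each of Kcnh6, Kcnj12 and Kcnip1 held a window of at least 28 reads. In M1+IL-6 15 members (16%) held one for certain, against 18.6%. Among the 40 members at or below the median of all genes Kcnq5 alone held such a window for certain by its row, of 30 to 293 reads. That window lay inside the 652 windows of its 5′ stretch. Kcnip1 is also among these 40 and held one too, because it contains the windows of Kcnmb1, whose strongest held 59 to 106 reads. Apart from Kcnq5 and Kcnip1, the long, low members could be without a strong window. The strongest window was lower in M1+IL-6 for certain in 8 members (8.51%, against 27.2% of all genes), namely Kcna3, Kcnab3, Kcne1, Kcnj9, Kcnk7, Kcnmb1, Kcnn1 and Kcnn4. It was higher for certain in 16 (17%, against 15.8%), among them 7 of the 15 inward rectifiers. All 16 spanned 8 windows or fewer, where the bounds are tightest. Inward rectifiers were the shortest role, with a median of 7 windows against 24.5 over all members. The 16 include Kcna4, Kcne1l and Kcne3, which had too few reads for a ratio. In Kcne1l the strongest window held 6 reads in each library and differed by the factor 1.03816 alone. Some other differences were small too, as in Kcne1 (20 and 15 reads) and Kcnj11 (22 and 25 reads). The strongest window need not be the same window in both libraries. Kcnab3, an auxiliary beta subunit of Kcna channels on chromosome 11, went from a window of 49 to 70 reads in M1 to at most 17.6 scaled reads, while its mean went from 11.6 to 7.04 (104 and 61 reads). It was the only member to go from a certain window above 21 reads to certainly none.

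**Figure D5:**
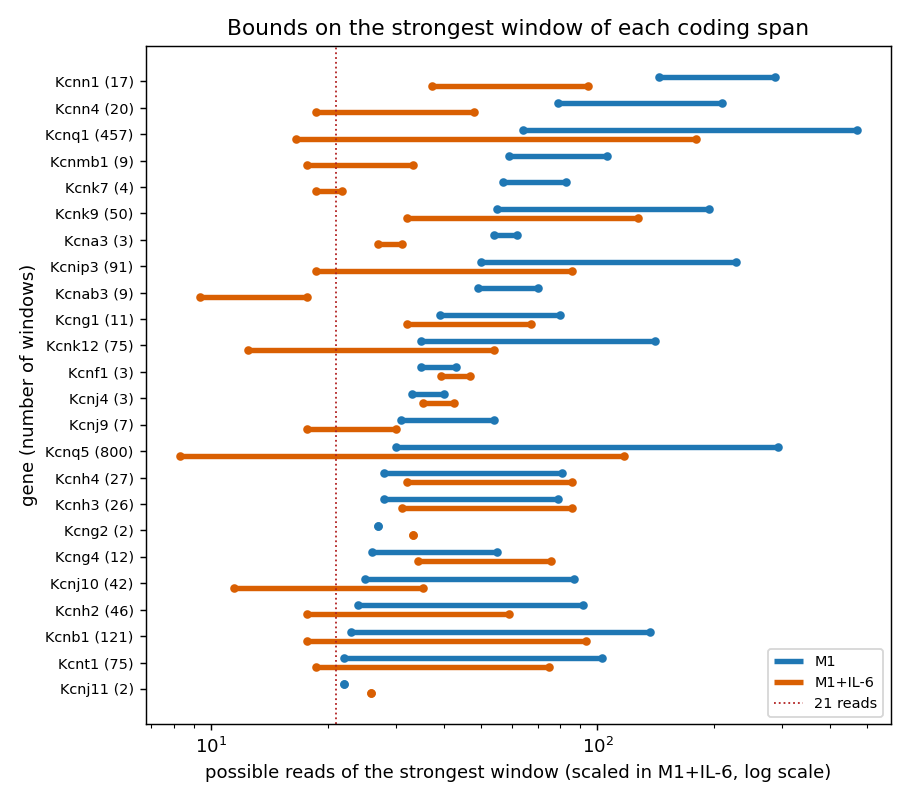
Lowest and highest possible reads in the strongest 700-bp window, from the mean, SD and window number of each row, on a log axis. Shown are the 24 potassium channel genes whose row held a window above 21 reads for certain in M1. Blue is M1 and orange is M1+IL-6 (scaled reads as deposited). Bars that do not overlap show a strongest window whose reads differ for certain, counting error aside, as in Kcnab3, Kcnk7 and Kcnn1. The bars for M1+IL-6 would shift upward by 1.83 on the log2 scale under the scaling to strong single windows.

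Of the channels known from immune cells a pair stood far above the others. Of 10 such genes (Kcna3, Kcna5, Kcnj2, Kcnn4, Kcnk6, Kcnk13, Kcnma1, Kcne3, Kcnab2 and Kcnq1) 7 lay above the median of all genes, where 49.9% of all genes lie, and 2, Kcna3 and Kcnn4, exceeded 20 reads per window in M1, as 15.5% of all genes did. The median of the list was 9.82 reads per window, against 8.78 over the 94 members and 7.75 over all genes. The same 2 were the ones at least 2-fold lower in M1+IL-6, as were 13.5% of all genes and 58.1% of those above 20 in M1. Kcna5, a partner of Kcna3 in macrophages, had 9.50 and 11.7 scaled reads per window (38 and 45 reads). Kcnj2, the main inward rectifier of macrophages, had 7.67 and 11.8 (23 and 34 reads), and Kcnk6, a potassium efflux channel of macrophages, had 6.33 and 8.39 (76 and 97 reads). The intervals of these 3 ratios include 1. The large-conductance pore Kcnma1 had 4.20 and 5.84 over 721 windows (ratio 1.39, 1.33 to 1.46), and its beta subunit gene Kcnmb1, as given above, went the other way. Kcnab2 had 10.52 and 11.96, Kcnk13 10.1 and 12.0, Kcnq1 8.49 and 10.2, and Kcne3 12 and 16 reads in its only window.

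Genes that move potassium by other means were compared as a background list of 20, which holds ion pumps, cation-chloride cotransporters and the Hcn channels. They had a median of 10.6 reads per window in M1, against 8.78 in the channel genes. Of the 20, 14 lay above the median of all genes, where 49.9% of all genes lie. By the ratio of reads 0 of them were lower by 2-fold or more in M1+IL-6 (13.5% of all genes) and 0 were higher by that much (1.63%). Their median log2 ratio was -0.04, against 0.36 in the channel genes. None of these 20 reached the level of Kcna3, Kcnk7, Kcnn4 or Kcnn1.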

How the data were processed

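The authors digested nuclei of untreated and of IL-6-treated M1 cells with DNase I and sequenced the short fragments, with 1 library for each. Reads were aligned to NCBIM37 (mm9 in the submitters' notes) with BWA and summarized in Seqmonk. The deposited signal is a mean with its SD over 700-bp windows touched by the coding span of each of 55432 transcripts, a column for each library. Read numbers were recovered as the mean times the number of windows, divided by 1 in M1 and by 1.03816 in M1+IL-6, and 100% of products were within 0.05 of a whole number. The factor 1.03816 is carried by the deposited values and is not named in the sources used here. Groups came from the labels.

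The 94 members, the lists and the named genes were chosen with earlier results of these data known. Named were members with an M1 mean above 20 or next to it, the 3 highest and 3 lowest log2 ratios with at least 100 reads, the 3 longest, the 3 lowest of at least 10 windows, the immune cell list and the 3 with the most uneven stretches. Kcnj8, Kcnj13, Kcnj9, Kcnj11, Kcng4, Kcnab3, Kcna2, Kcna10, Kcna4, Kcne1, Kcne1l and Kcnip1 were added after their values were seen. Log2 ratios add 0.5 reads to each library, and ratios were compared only for genes where either library exceeded 21 reads. A single library per group allows no test between groups, and p-values are not given. The bounds of a strongest window follow from mean, SD and window number. Scripts were tested on simulated data. Spans, exons and upstream sequence came from NCBIM37 and GENCODE, to which all 94 members were matched. Alternatives covered the scaling, the reads added, the read minimum, the threshold, the fold, the row per gene, chromosome 15 and genes that share windows. Columns of other samples numbered 0. Scripts ran in Python 3.11.15 (scipy 1.17.1, pandas 2.3.3, numpy 2.4.6 and matplotlib 3.10.9). Single genes of the list of other potassium transport genes are not reported here.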

Additional observations from a re-analysis of the deposited data

How the results depend on the processing

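Of 40 alternatives on 5 results 32 stayed within 1.5 times a count or, for a median, within an interval from the ranked values of the members. That interval reflects the spread between genes, not between libraries. The number of members above 20 reads per window was 10, and it was 4 at a threshold of 30 and 15 at a threshold of 15. It was 14 when each gene was represented by its row with fewest windows, and 14 with its row of highest M1 mean. The members named as above 20 thus depend on the row chosen. The number at least 2-fold higher was 2, and it was 1 among members with more than 50 reads, 0 with 5 reads added, 23 at a fold of 1.5 and 1 without genes that share windows. Scaling to single windows with more than 21 reads in both libraries, chosen after the data were seen, gave 0 members at least 2-fold lower, 87 higher and a median log2 ratio of 2.18, and it turned the log2 ratio of Kcna3 to 0.79, Kcnk7 to 0.47, Kcnn4 to 0.29, Kcnn1 to 1.27, Kcnmb1 to 0.69, Kcnq5 to 1.73 and Kcnj10 to 1.56. That scaling rests on 544 of 4349 single windows, and which scaling is right was not tested. Kcna3, nearest to 2-fold lower, was at -0.99 when scaled to the total over coding spans, which left 3 members at least 2-fold lower. No paired analysis was possible because each group holds 1 library and no test was made. Short spans limit the precision, as for Kcne3 with 12 and 16 reads, and regions outside coding spans, where enhancers and many promoters lie, are not analysed here.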

Other observations

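In 3 other small clusters the potassium channel genes had similar means in M1. On chromosome 6 Kcna5, Kcna1 and Kcna6, each with its coding sequence in 1 exon, had 9.50, 10.0 and 10.7 reads per window in M1. In M1+IL-6 they had 11.7, 7.96 and 16.6 scaled reads per window, so that the genes differed more from each other there than in M1. On chromosome 16 Kcne2 and Kcne1, small auxiliary subunits 51.6 kb apart, had 9.50 and 12.5 in M1 and 17.6 and 10.9 in M1+IL-6. Kcne2 held 15 and 4 reads in its 2 windows in M1 and 24 and 10 in M1+IL-6, while Kcne1 held 20 and 5 in M1 and 15 and 6 in M1+IL-6. On chromosome 11 the inward rectifiers Kcnj16 and Kcnj2, 46.0 kb apart, had 6.67 and 7.67 in M1 and were close in M1+IL-6 as well, at 11.4 and 11.8. These pairs rest on few reads each, and differences between neighbors were not tested.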
